A study of Mus musculus with 6 samples.

Results

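The nuclear-encoded subunits of oxidative phosphorylation were followed across 6 mouse livers. Members were the genes whose symbols name a subunit of complex I (Nduf followed by a, b, c, s or v and a number), complex II (Sdha to Sdhd), complex III (Uqcr and Cyc1), complex IV (Cox4 to Cox8) or complex V, the ATP synthase (Atp5). This rule found 84 of the 17441 genes of the table, with 38 in complex I, 4 in complex II, 9 in complex III, 16 in complex IV and 17 in complex V. The 3 livers labelled iKO came from mice with an inducible, whole-body knockout of Nek7, a serine/threonine kinase, and the 3 WT livers came from wild-type mice. Both groups are labelled as 10 days after tamoxifen, so the drug is shared by the controls. Strain, age, sex and the driver of the recombinase are not given in the sources used here, nor is it said which libraries came from separate animals, so the p-values measure only the spread between these samples, which may be technical.

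Oxidative phosphorylation is the last step of aerobic energy production. Complexes I and II pass electrons from NADH and succinate to ubiquinone, complex III passes them on to cytochrome c, and complex IV gives them to oxygen. Complexes I, III and IV pump protons across the inner mitochondrial membrane, and the ATP synthase uses the gradient to make ATP. Hepatocytes are rich in mitochondria and draw on this system for gluconeogenesis, the urea cycle and fatty acid oxidation. Most subunits are encoded in the nucleus and imported, and a smaller set, which is not analysed here, is encoded by mitochondrial DNA. A few members carry the flavin, iron-sulphur, haem or nucleotide sites at which the reactions take place. Most of the others are accessory subunits, many of them small proteins with short mRNAs.

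Promoters of the members are described first, since many members moved in the same direction. The windows are RefSeq's on GRCm38.p6, a later build than the one named for the deposited table, and run from 250 bases before to 50 bases after each start. Windows of 1 chromosome were left out of the search for all genes, so members there have none. In all, 67 of the 84 members had a window among those kept, with 72 windows. Each was searched on both strands for the core letters of sites that are widely described at such genes. The palindrome of NRF1, a transcription factor known for respiratory chain genes, which reads GCGC, then A and any base, then GCGC, was in 25.0% of the members' windows (18 of 72), against 4.6% of all 32851 windows. AAGATGGC, a YY1 site that contains ATG and can also be the start of a coding sequence, was in 13.9% of the members' windows, against 2.75% of all. CCGGAAGT, the site of ETS factors such as GABPA, was in 6.94% against 3.89%, and TCAAGGTCA, the site of ESRRA, in 2.78% against 0.423%. At least 1 of the 4 was in 43.1% of the members' windows and 10.9% of all windows. Median GC content was 57.5% in the members' windows and 52.7% in all windows. Among members, those called higher in livers labelled iKO (adjusted p under 0.05 in edgeR) held the NRF1 letters in 22.7% of 22 windows, against 27.1% of 48 windows of tested members that were not called. The YY1 letters were in 27.3% of the windows of called members (6) and 8.33% of those not called (4). These shares describe letters and not bound sites, and their part in the results was not tested.

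The windows of 4 members are shown because they hold the different letters: Ndufb4 with 3 NRF1 matches that do not overlap, Ndufa3 with 1 YY1 match, Uqcr11 with 1 ETS match, and Atp5b, a highly expressed member that was not called, with no match. Capitals mark the matches, and each window reads 5′ to 3′ on the strand of the gene. Ndufb4 is at chr16:37654319-37654618 on the minus strand, Ndufa3 at chr7:3617123-3617422 on the plus strand, Uqcr11 at chr10:80406772-80407071 on the minus strand and Atp5b at chr10:128083057-128083356 on the plus strand.
Ndufb4: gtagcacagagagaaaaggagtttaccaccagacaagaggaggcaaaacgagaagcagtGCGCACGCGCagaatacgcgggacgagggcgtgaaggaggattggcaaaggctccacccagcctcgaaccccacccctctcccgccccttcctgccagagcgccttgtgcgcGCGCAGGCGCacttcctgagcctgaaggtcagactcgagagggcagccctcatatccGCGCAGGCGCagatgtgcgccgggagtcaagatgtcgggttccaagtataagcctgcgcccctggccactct
Ndufa3: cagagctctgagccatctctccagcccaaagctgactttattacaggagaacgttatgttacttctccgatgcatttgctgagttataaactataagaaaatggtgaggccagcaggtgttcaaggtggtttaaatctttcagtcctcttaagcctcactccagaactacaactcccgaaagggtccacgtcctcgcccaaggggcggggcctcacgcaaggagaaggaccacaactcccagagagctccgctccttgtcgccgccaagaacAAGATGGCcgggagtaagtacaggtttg
Uqcr11: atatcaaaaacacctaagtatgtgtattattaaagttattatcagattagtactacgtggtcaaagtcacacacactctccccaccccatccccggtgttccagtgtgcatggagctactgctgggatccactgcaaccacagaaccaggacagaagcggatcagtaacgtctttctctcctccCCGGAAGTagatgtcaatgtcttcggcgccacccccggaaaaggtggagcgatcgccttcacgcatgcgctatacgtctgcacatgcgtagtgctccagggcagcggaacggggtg
Atp5b: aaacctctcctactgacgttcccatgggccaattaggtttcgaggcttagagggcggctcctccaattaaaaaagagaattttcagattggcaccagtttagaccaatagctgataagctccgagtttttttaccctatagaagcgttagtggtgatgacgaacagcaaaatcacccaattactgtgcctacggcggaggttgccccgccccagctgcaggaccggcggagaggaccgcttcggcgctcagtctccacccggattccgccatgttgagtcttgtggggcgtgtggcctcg

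The libraries held between 18139500 and 19912000 expected counts, the fractional read counts that RSEM assigns to genes. Nek7 itself had 50.2, 32.8 and 31.0 CPM (counts per 1e6 counts, scaled with TMM factors) in the livers labelled iKO and 55.5, 40.5 and 36.3 CPM in WT livers, with a log2 fold change of -0.22 ± 0.23 (SE; edgeR adjusted p = 0.541). Its groups overlap. A gene total covers all exons and does not check a deletion of some of them, so the livers are called by their labels. Scaling factors ran from 0.78 in iKO 1 to 1.18 in WT 2. WT 2 and WT 3 held 0 counts of the Y-linked genes Ddx3y and Kdm5d, where the other 4 libraries held between 573 and 1110. Calls, medians and summed levels of the members are also given without them.

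Transcripts of the subunits were more abundant in the livers labelled iKO. Of 80 members that passed the filter on low counts, 23 were called higher (28.7%), where "called" means an adjusted p under 0.05 in edgeR's quasi-likelihood test over 13160 genes, and 0 were called lower, by edgeR or DESeq2. Over all genes tested, 7.31% were called higher and 8.07% lower. At an unadjusted p under 0.05, 63 members passed, 0 of them lower. The share of all genes at this unadjusted threshold is not given here, so counts of members at it have no background. The called members rose by 1.52-fold to 1.91-fold, a log2 fold change of 0.60 to 0.93, with adjusted p between 0.0212 and 0.0496. Another 27 members had an adjusted p between 0.05 and 0.1, again without a share of all genes to set beside them. The log2 fold change was positive for 75 of the 80, with a median of 0.66 (1.58-fold) against -0.02 for all genes. All 3 livers labelled iKO stood above all 3 WT livers for 66 members (82.5%), against 19.8% of all genes and 40.5% of the shortest quintile by transcript length. The 4 members that did not pass the filter, Cox4i2, Cox6a2, Cox6b2 and Cox8b, are isoforms of other tissues and are described with complex IV.

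Leaving out single libraries ended every member's call in at least 1 fit. Without iKO 2, 28 members were called (6.85% of all genes higher), and without WT 1, 11 were (5.53%). Without iKO 1 there was 1, Ndufa2 (4.78%). The count was 0 without iKO 3, WT 2 or WT 3, where 3.61%, 1.71% and 3.11% of all genes were called higher. In these fits 65, 35 and 52 members had an unadjusted p under 0.05, a threshold at which no share of all genes is given. The members' median log2 fold change in these 3 fits was 0.75, 0.57 and 0.69, and it was 0.79 without iKO 2 and 0.72 without WT 1. Without iKO 1 it was 0.43, with 0.42 for complex V and 0.04 for complex II. All 23 were also called by DESeq2, which called 43 members and 7.75% of all genes higher. On a scale of log2 fragments per kilobase and per 1e6 fragments (FPKM), limma called 10 members with a pseudocount of 1 or 0.1, against 3.2% and 3.24% of all genes. In liver tissue, fewer cells of a type and less RNA per cell cannot be told apart.

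**Figure D1:**
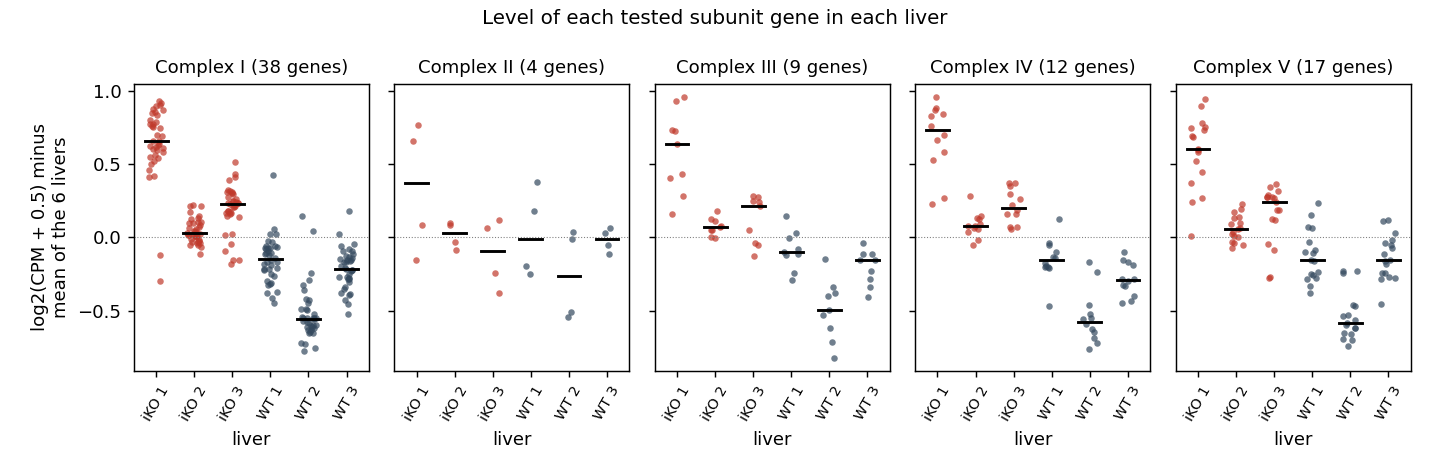
Level of each of the 80 tested members in each liver as log2(CPM + 0.5) minus the member's mean over the 6 livers, 1 panel per complex, with a point per gene (red for livers labelled iKO, blue-grey for WT) and a bar at the median. iKO 1 is the highest liver for 73 members and WT 2 the lowest for 70.

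Complex I, the NADH dehydrogenase, had 13 of 38 members called higher (34.2%). This compares with 7.31% of all genes and 26.9% of genes outside the set with transcripts under 800 bases. The complex had a median log2 fold change of 0.66. Its summed level was 4749, 3062 and 3412 CPM in iKO 1, iKO 2 and iKO 3 and 2698, 2069 and 2614 CPM in WT 1, WT 2 and WT 3. The group means of the log2 level differed by 0.59 (2-sided exact permutation p = 0.1, the smallest that 3 against 3 can give). The groups do not overlap, and iKO 1 stands apart above the rest. Of the 13 called members, 12 are accessory subunits. Ndufb4, in the membrane arm, had 136.2, 71.9 and 95.2 CPM in livers labelled iKO and 53.5, 41.6 and 63.6 CPM in WT livers (log2 fold change 0.93 ± 0.25 SE; edgeR adjusted p = 0.0377). Ndufa8, a cysteine-rich subunit on the intermembrane side, had 151.1, 86.0 and 112.8 CPM against 66.9, 49.3 and 69.2 CPM in WT (0.92 ± 0.23; edgeR adjusted p = 0.0309). For both, the lowest liver labelled iKO lies above the highest WT liver. Ndufa3, a small membrane-arm subunit, had 155.8, 89.4 and 103.3 CPM in livers labelled iKO, against 64.6, 53.2 and 69.1 CPM in WT (0.90 ± 0.23; edgeR adjusted p = 0.0306). Ndufb7 averaged 95.1 ± 29.6 CPM in livers labelled iKO and 53.2 ± 8.99 CPM in WT livers (SD, n = 3 each; log2 fold change 0.84, edgeR adjusted p = 0.0432). The lowest adjusted p of any member was that of Ndufa2, a matrix-arm subunit, at 0.0212, with 76.4, 57.2 and 67.9 CPM in livers labelled iKO and 42.9, 35.1 and 42.4 CPM in WT. The counts of Ndufb4 and Ndufa2 are fractional in all 6 libraries, as they are for 9 members, which is a sign of reads shared with similar sequences, and their levels are less certain.

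Of the 7 core subunits of complex I, 1 was called. This was Ndufs7, which holds the last cluster before ubiquinone and had 146.1, 76.3 and 99.4 CPM in livers labelled iKO against 64.9, 54.5 and 65.5 CPM in WT (log2 fold change 0.80 ± 0.24 SE; edgeR adjusted p = 0.0493). Ndufs3 and Ndufs8 had log2 fold changes of 0.65 and 0.69 without being called. Ndufs1, the longest mRNA of the complex at 2666 bases, had 53.2, 75.8 and 57.6 CPM in livers labelled iKO and 88.0, 67.4 and 56.4 CPM in WT (log2 fold change -0.18 ± 0.21 SE; edgeR adjusted p = 0.58), so its groups overlap. Ndufv1, which binds NADH, had a log2 fold change of 0.33, also with overlapping groups. Among the called accessory subunits, Ndufs4, whose loss in mice gives a Leigh-like disease, showed a tight spread, with 56.7, 49.1 and 51.2 CPM in livers labelled iKO against 40.5, 30.9 and 32.1 CPM in WT. The other called members, Ndufa5, Ndufb6, Ndufa11, Ndufc1, Ndufb3 and Ndufa13, had log2 fold changes from 0.66 to 0.83. The member of highest level per length was Ndufa4, now assigned by many to complex IV, at a mean of 429.6 FPKM over the 6 livers. It had 269.3, 208.7 and 224.1 CPM in livers labelled iKO and 193.5, 130.1 and 149.0 CPM in WT, and was not called (0.57 ± 0.21; edgeR adjusted p = 0.0896).

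Complex II, succinate dehydrogenase, which also works in the TCA cycle, had 0 of 4 members called in edgeR, with 2 at an unadjusted p under 0.05, and 0 called by DESeq2 or limma-voom. Sdhb, the iron-sulphur subunit and the most abundant of the complex per length at 180.9 FPKM, had 312.5, 179.5 and 199.8 CPM in livers labelled iKO and 160.4, 126.1 and 169.6 CPM in WT (log2 fold change 0.60 ± 0.24 SE; edgeR adjusted p = 0.12). Sdhc, a membrane anchor, was similar at 0.56 ± 0.22. Sdha, the flavoprotein, had 282.0, 333.9 and 242.1 CPM in livers labelled iKO and 408.1, 322.4 and 320.3 CPM in WT, a log2 fold change of -0.29 ± 0.21. Sdhd, the other anchor, was at -0.15 ± 0.17. The 4 members thus lie on both sides of 0, and their summed level overlaps between the groups, at 1002, 814.8 and 727.6 CPM in livers labelled iKO against 847.7, 686.9 and 782.6 CPM in WT (exact permutation p = 0.5). The difference between complex II and the other complexes was not tested. Its members' transcripts run from 1030 to 2810 bases, with a median of 1183. That is near the 1225 bases of complex III and above the 678, 519 and 600 of complexes I, IV and V.

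Complex III, the cytochrome bc1 complex, had a median log2 fold change of 0.49, with 2 of 9 members called higher (22.2%). This compares with 7.31% of all genes and 15.7% of the shortest quintile by transcript length. Both called members are small subunits. Uqcr11 had 276.2, 157.7 and 170.8 CPM in livers labelled iKO and 121.9, 81.6 and 123.1 CPM in WT (0.89 ± 0.26 SE; edgeR adjusted p = 0.0488), and was also the most abundant of the complex per length at 386.7 FPKM. Uqcrq, which lies next to the ubiquinone site, had 575.6, 320.1 and 343.0 CPM in livers labelled iKO against 242.5, 180.5 and 243.3 CPM in WT (0.89 ± 0.27; edgeR adjusted p = 0.0493). Neither gene's groups overlap. The redox subunits Cyc1, which carries haem, and Uqcrfs1, the Rieske iron-sulphur protein, had log2 fold changes of 0.42 ± 0.23 and 0.34 ± 0.19 and were not called. Uqcrc2, a large core protein, had 189.9, 178.8 and 155.6 CPM in livers labelled iKO and 188.5, 153.8 and 157.2 CPM in WT, a log2 fold change of 0.07. Summed over the complex, levels were 2283, 1522 and 1560 CPM in livers labelled iKO and 1351, 1027 and 1271 CPM in WT (exact permutation p = 0.1).

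Complex IV, cytochrome c oxidase, had 3 of 12 tested members called higher (25.0%). This compares with 7.31% of all genes and 26.9% of genes outside the set under 800 bases. The complex had a median log2 fold change of 0.71 and a median level of 333.7 FPKM, the highest of the 5 complexes. Its catalytic subunits are encoded by mitochondrial DNA, so all of its members here are accessory. Cox7a2 had 149.9, 122.1 and 127.6 CPM in livers labelled iKO and 96.5, 60.7 and 73.4 CPM in WT (0.79 ± 0.21 SE; edgeR adjusted p = 0.0326), with fractional counts in all 6 libraries. Cox5b, a zinc-binding subunit, had 308.6, 178.5 and 224.9 CPM against 152.0, 102.7 and 143.0 CPM in WT (0.84 ± 0.25; edgeR adjusted p = 0.0483). Cox7c averaged 213.1 ± 54.6 CPM in livers labelled iKO and 126.4 ± 18.1 CPM in WT livers (SD, n = 3 each; 0.75, edgeR adjusted p = 0.0496). All 12 tested members had every liver labelled iKO above every WT liver. This also held for 19.8% of all genes, 40.5% of the shortest quintile by transcript length and 287 of 479 other genes under 800 bases. Cox6a1, the most abundant per length at 487.6 FPKM, had 455.0, 260.5 and 275.6 CPM in livers labelled iKO and 214.5, 160.0 and 200.6 CPM in WT without being called (edgeR adjusted p = 0.0631). The smallest difference was that of Cox7a2l, a factor of respiratory supercomplexes, with 94.6, 84.4 and 85.0 CPM in livers labelled iKO against 75.3, 71.9 and 75.3 CPM in WT (log2 fold change 0.25 ± 0.15 SE).

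Several subunits of complex IV have an isoform for liver and most tissues and another for heart, muscle or lung. The common isoforms Cox4i1, Cox6a1, Cox6b1, Cox7b and Cox8a had log2 fold changes of 0.71, 0.79, 0.71, 0.49 and 0.70 and were not called, while Cox7a2, the common counterpart of Cox7a1, was called as given above. Of the restricted isoforms, Cox4i2, Cox6a2 and Cox6b2 had at most 0.355 CPM in any library. Cox7a1, the muscle form, had 2.26, 1.02 and 0.986 CPM in livers labelled iKO and 0.531, 0.71 and 0.58 CPM in WT, the largest fold change of any tested member at 2.29-fold (SE 0.45 on the log2 scale), but was not called (edgeR adjusted p = 0.0932). Cox8b, the form of striated muscle and brown fat, had 17, 10 and 3 expected counts in the livers labelled iKO and 0, 0 and 0 in WT. Pooled over each group, the level in livers labelled iKO was 11.7-fold the floor of 3 counts over the WT group, and 7.09-fold without iKO 1. These ratios allow for counting error of the WT zeros only and take the counts in livers labelled iKO as exact. The 3 counts of iKO 3, at 0.156 CPM, are no higher than the floor for a count of 0 in that library (0.156 CPM). Markers of brown adipocytes were counted in the same livers: Ucp1 had 58, 28 and 1 counts in the livers labelled iKO and 0, 0 and 0 in WT, and Cidea had 19, 18 and 4 counts in the livers labelled iKO against 0, 3 and 2 in WT. The whole list of 5 brown adipocyte markers summed to 93.6 to 128.0 CPM in livers labelled iKO and 67.2 to 92.0 CPM in WT, most of it from Elovl6, and 0 of the 2 tested were called. Adipoq, which marks fat cells in general, had at most 2 counts in any library. Of 6 striated muscle markers 4 were in the table, none passed the filter, and they summed to 0.0666, 0.107 and 7.11 CPM in the livers labelled iKO against 0.425, 0.133 and 0.145 CPM in WT, so iKO 3 is the highest for muscle and the lowest of the livers labelled iKO for Cox8b. The part of these cells in the counts was not tested. Ndufa4l2, the form of Ndufa4 known from hypoxic cells, was lower in every liver labelled iKO and not called, with 1.87, 1.88 and 1.82 CPM in livers labelled iKO and 2.18, 2.35 and 2.42 CPM in WT (-0.32 ± 0.28 SE; edgeR adjusted p = 0.451).

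Complex V, the ATP synthase, had 5 of 17 members called higher (29.4%) and a median log2 fold change of 0.67. Of all genes 7.31% were called higher, and of genes outside the set under 800 bases 26.9%. Atp5e, the epsilon subunit of the central stalk, had 164.5, 87.9 and 103.7 CPM in livers labelled iKO and 72.5, 51.1 and 70.3 CPM in WT (0.88 ± 0.25 SE; edgeR adjusted p = 0.0462). Atp5j2, subunit f of the membrane part, had 254.7, 145.3 and 165.4 CPM against 108.7, 84.1 and 115.5 CPM in WT (0.87 ± 0.24; edgeR adjusted p = 0.0407). The remaining called members are Atp5md and Atp5mpl, small proteins that bind the membrane part, and Atp5j, in the peripheral stalk, with log2 fold changes of 0.82, 0.70 and 0.67. Atp5md averaged 115.1 ± 25.7 CPM in livers labelled iKO and 65.2 ± 10.7 CPM in WT, and Atp5mpl 59.4 ± 9.47 CPM in livers labelled iKO and 36.7 ± 5.55 CPM in WT (SD, n = 3 each). Values for the catalytic head lay near 0. Atp5b, its beta subunit and the member with the highest level per length in the whole set (540.1 FPKM), had 1188, 1031 and 813.7 CPM in livers labelled iKO and 1035, 834.4 and 1069 CPM in WT (0.05 ± 0.23 SE; edgeR adjusted p = 0.916). Atp5a1, the alpha subunit, had 913.8, 774.9 and 642.6 CPM in livers labelled iKO against 859.6, 660.0 and 836.6 CPM in WT, a log2 fold change of -0.02. The groups overlap for both. Subunit c, which forms the rotating ring, is made from 3 genes for the same mature protein. Atp5g1, Atp5g2 and Atp5g3 had log2 fold changes of 0.68, 0.49 and 0.59, none of them called. Their mean levels in livers labelled iKO and in WT were 254.0 and 158.8 CPM for Atp5g1, 138.0 and 98.1 CPM for Atp5g2, and 337.8 and 224.3 CPM for Atp5g3.

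**Figure D2:**
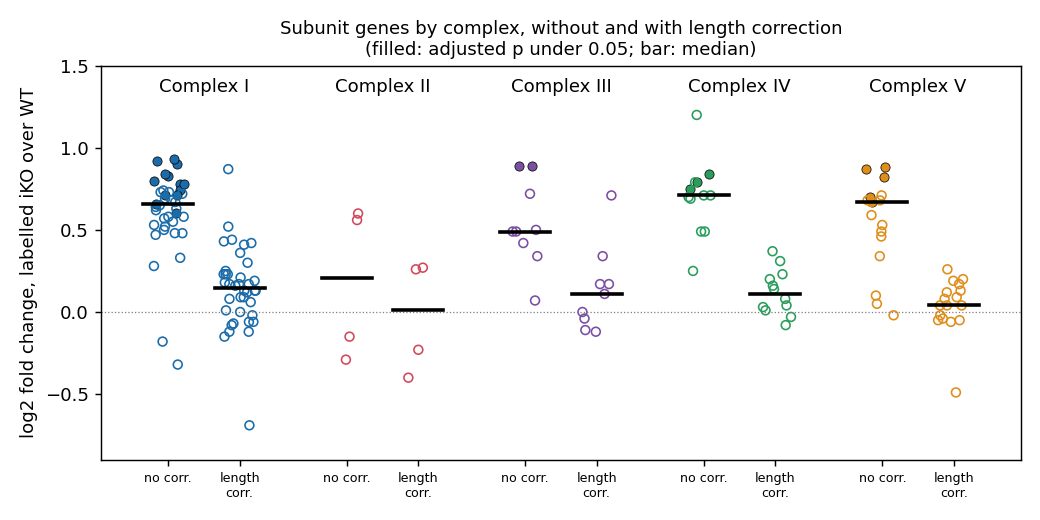
Log2 fold change of each tested member, livers labelled iKO over WT, by complex, without and with the correction for transcript length described further on, with 1 point per gene, called members filled and a bar at each median. Medians are 0.66, 0.20, 0.49, 0.71 and 0.67 for complexes I to V without the correction and 0.15, 0.01, 0.11, 0.11 and 0.04 with it.

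Across complexes, 13 members were classed as catalytic: the 7 core subunits of complex I, Sdha, Sdhb, Cyc1, Uqcrfs1, Atp5a1 and Atp5b. Of these, 1 was called (7.69%), with a median log2 fold change of 0.34. The other 67 tested members, with Sdhc and Sdhd among them, had 22 called (32.8%) and a median of 0.68, against 7.31% of all genes called higher. This division was chosen after the values were seen. The catalytic members summed to 4162, 3347 and 2932 CPM in livers labelled iKO and 3429, 2702 and 3297 CPM in WT, which overlap (exact permutation p = 0.5). The others summed to 12630, 8254 and 9079 CPM in livers labelled iKO and 7151, 5392 and 6911 CPM in WT, which do not (exact permutation p = 0.1). The 2 classes also differ in length, with a median transcript of 1491 bases for catalytic members and 600 for the others. After the length correction described with transcript length, the median log2 fold change was 0.17 for catalytic members and 0.09 for the others. Over the 80 tested members the corrected log2 fold change was higher for longer transcripts (Spearman's rho = 0.26, against 0.01 over all genes).

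Summed over the 80 tested members, the level was 16792, 11601 and 12011 CPM in livers labelled iKO and 10580, 8093 and 10208 CPM in WT. The group means of the log2 level differed by 0.47 (1.39-fold, exact permutation p = 0.1). This difference was 0.30 without iKO 1 and 0.33 with WT 1 as the only WT liver. Against WT 1 alone the log2 difference was 0.45, -0.01, 0.38, 0.48 and 0.22 for complexes I to V. On other scales the log2 difference was 0.41 for FPKM and 0.27 for TPM, which sums to the same total in every library, with no overlap between groups on any of them. As a share of all expected counts, without scaling, the members took 1.31%, 1.15% and 1.28% in livers labelled iKO and 1.05%, 0.95% and 1.06% in WT. The libraries did not contribute alike. iKO 1 was the highest of the 6 libraries for 73 members (91.2%), against 25.5% of all genes, and WT 2 the lowest for 70 (87.5%), against 18.4%. The members' median deviation from their own 6-library mean was 0.66, 0.06 and 0.21 on the log2 scale in iKO 1 to iKO 3 and -0.14, -0.55 and -0.19 in WT 1 to WT 3. Genes outside the set with transcripts under 800 bases had 0.50, 0.04 and 0.27 in the livers labelled iKO and -0.23, -0.43 and -0.15 in WT. In both sets iKO 1 is the highest library and WT 2 the lowest.

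**Figure D3:**
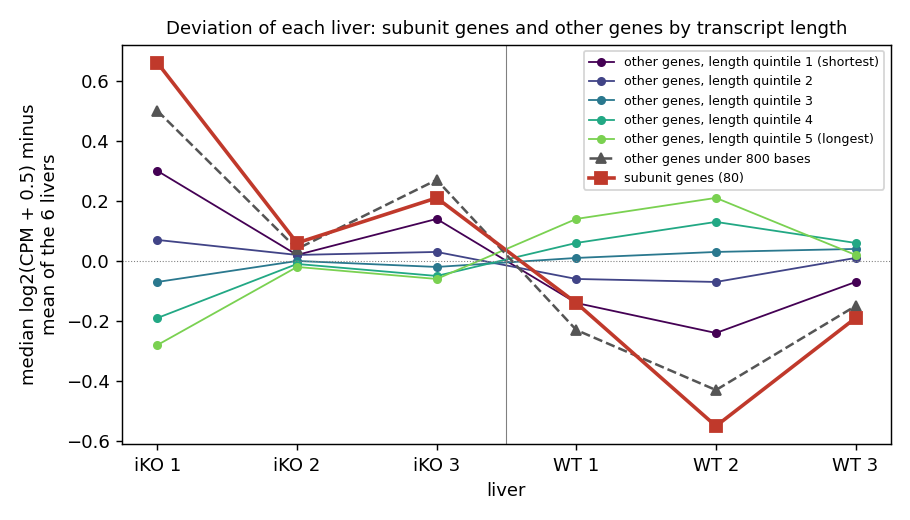
Median deviation of log2(CPM + 0.5) from each gene's 6-library mean, for the members, for other genes under 800 bases and for the other genes by quintile of transcript length, in each liver, with those labelled iKO left of WT. The members lie at 0.66 in iKO 1 and -0.55 in WT 2, and the longest quintile at -0.28 and 0.21.

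Transcript length was taken from the deposited counts and FPKM, which give the effective length of each gene, and 98.7% of tested genes had a value. Members are short, with a median of 661 bases against 2822 for all genes. The log2 fold change was lower for longer transcripts both in the members (Spearman's rho = -0.55 over 80 genes, Pearson's r = -0.61) and in all genes (rho = -0.35 over 12995 genes, r = -0.28). Genes share the same 6 libraries and are not independent replicates, so these are descriptions. With the coding length of GENCODE M21 in place of the effective length, rho was -0.49 over 77 members and -0.28 over 12778 genes. Within complex V it was -0.66 over 17 members, and within complex I -0.37 over 38. In the shortest quintile of tested genes, up to 1602 bases, 15.7% were called higher, against 3.08% in the longest, from 4715 bases. This quintile holds 73 members, of which 22 were called (30.1%). Of the 52 members under 800 bases 19 were called (36.5%) with a median log2 fold change of 0.70, and of the 479 other genes under 800 bases 129 were called higher (26.9%) with a median of 0.59. Between 400 and 500 bases the members' share was below that of other genes, at 25.0% of 16 against 33.8% of 77, and under 400 bases above it, at 66.7% of 9 against 41.7% of 36. Ndufa11 was the only called member with an effective length over 1485 bases.

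**Figure D4:**
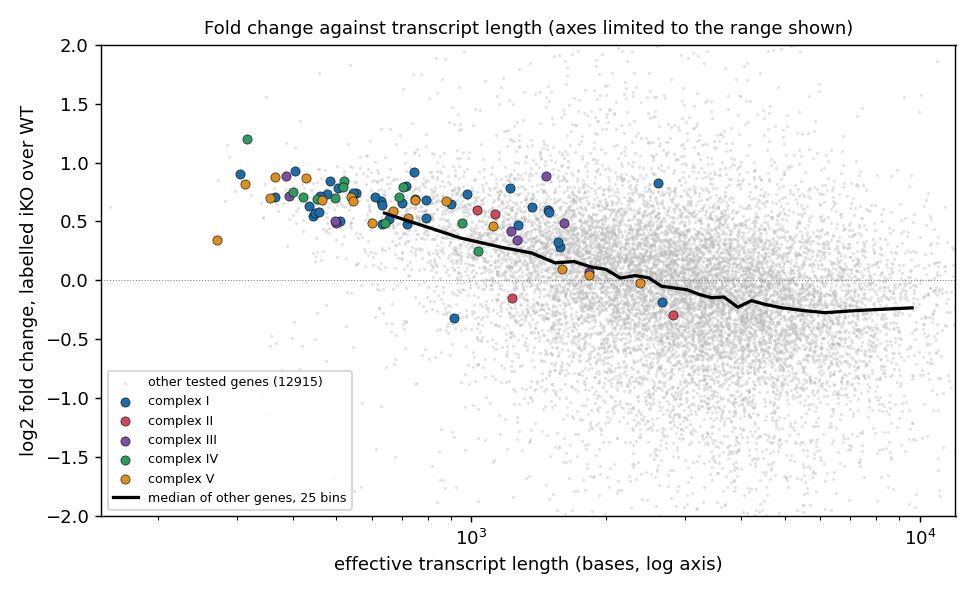
Log2 fold change, livers labelled iKO over WT, against effective transcript length in bases (log axis) for all tested genes (grey) and for the members, coloured by complex, with a line through the medians of other genes in bins of length. Members under 800 bases have a median of 0.70, and Sdha at 2810 bases, Ndufs1 at 2666 and Atp5a1 at 2383 lie below 0.

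**Figure D5:**
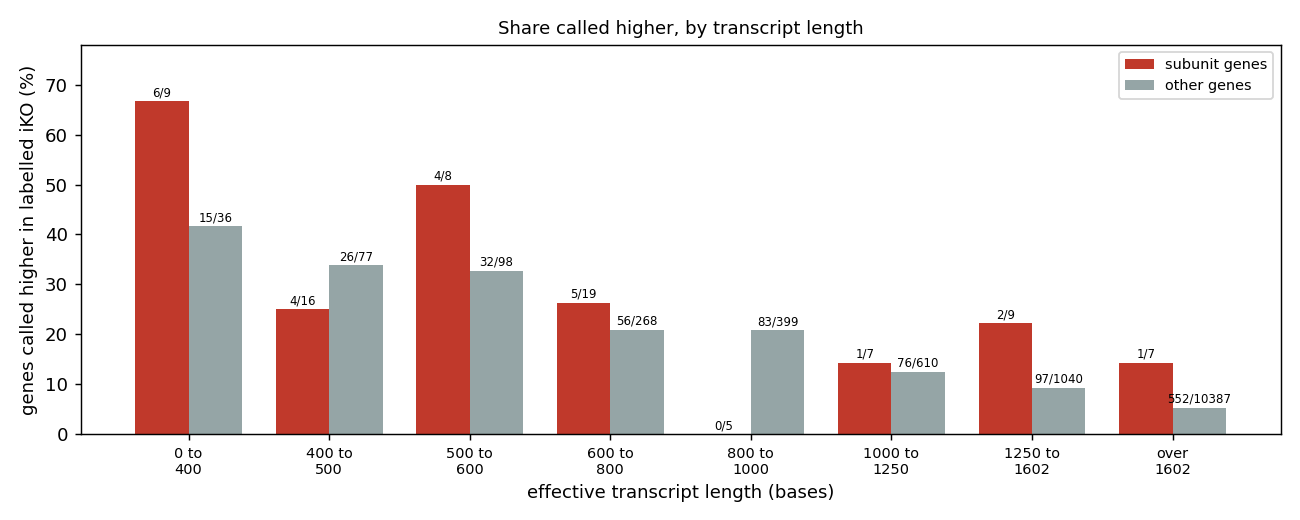
Share of genes called higher in livers labelled iKO (percent) by bin of effective transcript length in bases, for the members and for other genes, with the count called and tested for each bar. Shares of other genes run between 41.7% under 400 bases and 5.31% from 1602 bases.

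When the trend of log2 CPM over length was taken out of each library, 0 members were called, with 8 at an unadjusted p under 0.05, while 5.85% of all genes were called higher. The members' median log2 fold change was then 0.12, against 0.01 for all genes, and 58 of the 80 were positive. Spearman's rho with length was then 0.26 over the members and 0.01 over all genes, so the members kept a trend, of turned sign. Medians by complex were 0.15, 0.01, 0.11, 0.11 and 0.04 for complexes I to V. The trend follows short transcripts of every kind, the members among them, so the correction takes out any change that short mRNAs share. Ndufa11, a called member, hardly moved: its log2 fold change was 0.83 before and 0.87 after (edgeR adjusted p = 0.0536), with 98.7, 54.8 and 59.3 CPM in livers labelled iKO and 41.9, 33.5 and 44.7 CPM in WT. Its effective length of 2612 bases is long for a coding length of 429 bases. Uqcrq, at 1468 bases with a coding length of 246, had 0.71 after the correction (edgeR adjusted p = 0.0791), and Ndufa13 had 0.52. At the other end Atp5k, subunit e of the ATP synthase and the shortest at 271 bases, had a log2 fold change of 0.34 before and -0.49 after (edgeR adjusted p = 0.0764).

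The calls were also read in fits that take account of Y-linked reads. All 3 livers labelled iKO hold such reads, so these fits leave WT 1 as the only WT liver to compare with. The fit with a term for these reads keeps every library, so WT 2 and WT 3 still count towards its spread, and the other fit leaves them out. In both, WT 1 is assumed to vary like the other libraries of the fit. With a term for Y-linked reads in the fit, 0 members were called (4 at an unadjusted p under 0.05), with 0.593% of all genes called higher, and the members' median log2 fold change was 0.49. In the 4 libraries with Y-linked reads, 0 were called (2 at an unadjusted p under 0.05), with 0.485% of all genes called higher, and the median was 0.50. With the term and the length correction together the median was -0.01.

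Gene groups that serve the same organelle were read from the same fit. It called 7.31% of all genes higher and 8.07% lower, and 15.7% higher in the shortest quintile by transcript length. Mitochondrial ribosomal proteins, which translate the mitochondrially encoded subunits, had 13 of 78 called higher (16.7%) and 0 lower, with a median log2 fold change of 0.37. The largest were Mrpl54 at 0.97, and Mrps21 and Mrpl57 at 0.87. The import machinery had 7 of 30 called higher (23.3%) and 0 lower, with a median of 0.51. Among them Chchd4, which folds cysteine-rich intermembrane proteins, had 8.99, 10.3 and 11.6 CPM in livers labelled iKO against 6.16, 5.73 and 4.88 CPM in WT (edgeR adjusted p = 0.0192), and Pam16 and Timm10 rose by 0.97 and 0.94 on the log2 scale. Assembly factors had 5 of 54 called higher (9.26%) and 1 lower, with a median of 0.25. Cox19, of copper delivery to complex IV, had 31.6, 23.5 and 24.0 CPM in livers labelled iKO and 15.2, 9.68 and 12.5 CPM in WT (1.08 ± 0.21 SE; edgeR adjusted p = 0.0107), and Uqcc3, of complex III assembly, rose by 0.81. Taco1, which activates translation of the mitochondrially encoded Cox1, fell to 7.33, 8.58 and 4.51 CPM in livers labelled iKO, against 17.5, 16.2 and 16.6 CPM in WT (-1.30 ± 0.23; edgeR adjusted p = 0.00857). Without WT 2 the calls of Cox19, Uqcc3, Pam16 and Mrpl54 were lost, at edgeR adjusted p of 0.0528, 0.0837, 0.0817 and 0.08. Those of Timm10, Chchd4 and Mrps21 were lost without iKO 3, WT 2 or WT 3, and that of Mrpl57 without iKO 1, WT 2 or WT 3, with highest edgeR adjusted p of 0.105, 0.0799, 0.102 and 0.119. Taco1 kept its call whichever library was dropped.

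Some genes around the chain had larger changes than any called subunit. Coq10b, a lipid-binding protein of ubiquinone, had 50.4, 72.6 and 63.2 CPM in livers labelled iKO and 6.32, 4.13 and 3.67 CPM in WT (log2 fold change 3.72 ± 0.25 SE; edgeR adjusted p = 0.000153), so its lowest liver labelled iKO is far above the highest WT liver. Coq8a, a kinase-like protein of ubiquinone synthesis, had 378.5, 176.3 and 96.5 CPM in livers labelled iKO against 557.8, 610.8 and 831.7 CPM in WT (-1.62 ± 0.46; edgeR adjusted p = 0.0497). Coq7, a hydroxylase of the same route, rose by 0.97. With cytochrome c, the ubiquinone list had 3 of 18 called higher (16.7%) and 1 lower, against 7.31% and 8.07% of all genes. Fh1, the fumarase that takes the product of complex II, was the only called gene of 19 in the TCA cycle, with 236.7, 246.1 and 255.4 CPM in livers labelled iKO and 115.6, 90.3 and 76.4 CPM in WT (1.39 ± 0.20; edgeR adjusted p = 0.0035). The share called higher on the TCA cycle list was 5.26%. Of 23 regulators of mitochondrial biogenesis 1 was called higher (4.35%) and 1 lower. Pprc1, a coactivator of NRF1, had 41.8, 31.3 and 27.9 CPM in livers labelled iKO against 9.88, 8.61 and 7.30 CPM in WT (1.97 ± 0.20; edgeR adjusted p = 0.000741). Esrrg, a nuclear receptor of oxidative genes, had 1.87, 1.66 and 0.726 CPM against 3.93, 4.22 and 4.01 CPM in WT (-1.52 ± 0.36; edgeR adjusted p = 0.0235). With the Y-linked term, Coq10b and Pprc1 kept an adjusted p under 0.05 in edgeR, at 0.00391 and 0.0338, while Fh1 (0.109), Taco1 (0.0803), Esrrg (0.186) and Coq8a (0.323) did not. Their log2 fold changes with this term, which leaves WT 1 as the only WT liver to compare with, were 1.09, -1.37, -1.48 and -1.36. Coq10b, Pprc1 and Fh1 kept their calls whichever single library was dropped, with highest edgeR adjusted p of 0.000759, 0.00455 and 0.0243. Coq8a was called in 1 of them, only without iKO 1, while Coq7 lost its call without iKO 3 or WT 2 and Esrrg without iKO 3, WT 2 or WT 3, with highest edgeR adjusted p of 0.153, 0.0689 and 0.0934.

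Other protein complexes built from small subunits were read in the same way. For scale, 7.31% of all genes were called higher, and 26.9% of genes outside the set under 800 bases. Cytosolic ribosomal proteins had a median transcript of 665 bases, with 27 of 78 called higher (34.6%), 0 lower and a median log2 fold change of 0.69. The members had 661 bases, 23 of 80 (28.7%) and 0.66. Rpl28 had 508.6, 261.7 and 378.4 CPM in livers labelled iKO and 209.1, 157.9 and 228.5 CPM in WT (0.95 ± 0.27 SE; edgeR adjusted p = 0.0431), with iKO 1 highest and WT 2 lowest as in the members. Rpl12 and Rps15 both had a log2 fold change of 0.94. Proteasome subunits, with a median of 1289 bases, had 1 of 38 called higher and 1 lower, and a median of 0.22, the assembly chaperones Psmd9 (0.74) and Psmd5 (-0.57) being the called pair. Left-out libraries ended calls here too: Rpl28 and Rps15 were called only without iKO 2 and Rpl12 only without iKO 2 or WT 3, Psmd9 lost its call without WT 2, and Psmd5 in all 6 such fits, with highest edgeR adjusted p of 0.167, 0.142, 0.121, 0.0754 and 0.153. After the length correction the medians were 0.19 for cytosolic ribosomal proteins, 0.06 for mitochondrial ribosomal proteins and -0.03 for the proteasome, against 0.12 for the members. Differences between these lists and the members were not tested.

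Markers of other liver cells differed between the same groups. Of all genes tested, 8.07% were called lower and 7.31% higher. The stellate and fibroblast list summed to 138.0 to 175.9 CPM in livers labelled iKO and 298.2 to 498.4 CPM in WT, with 6 of 8 called lower. Kupffer cell and macrophage markers summed to 144.8 to 203.9 CPM in livers labelled iKO against 257.3 to 465.0 CPM in WT, with 5 of 6 called lower. For sinusoidal endothelium the sums were 47.3 to 97.8 CPM in livers labelled iKO and 117.7 to 190.9 CPM in WT, with 3 of 6 called lower. Neutrophil markers summed to 9.97 to 30.9 CPM in livers labelled iKO and 24.1 to 111.7 CPM in WT, with 3 of 5 called lower. Hepatocyte markers, which define the labelled tissue, were abundant in every library and summed to 112191 to 136784 CPM in livers labelled iKO and 113842 to 123332 CPM in WT, with 2 of 8 called higher and a median log2 fold change of 0.35. The erythroid list (4 of its 5 genes in the table) summed to 76.0 to 435.9 CPM in livers labelled iKO, highest in iKO 1, and 100.2 to 214.0 CPM in WT, with 0 of 2 tested genes called. Of the WT livers, WT 1 had the lowest sum on the stellate (298.2 CPM), Kupffer (257.3 CPM), endothelial (117.7 CPM) and neutrophil (24.1 CPM) lists. The first 3 of these lie above every liver labelled iKO, and the neutrophil sum does not. WT 2 and WT 3, the livers without Y-linked reads, had 492.4 and 498.4 CPM for stellate, 412.5 and 465.0 CPM for Kupffer and 190.9 and 182.9 CPM for endothelial markers. Of the markers in the table, none was at 0 in all libraries. The part of cell composition in the members' result was not tested.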

How the data were processed

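Liver RNA was sequenced in 6 libraries, 3 labelled iKO and 3 WT. The tools named per the submitters' processing notes are RSEM 1.2.12, HISAT2 2.0.4 and Bowtie2 2.2.5, with mouse build mm9. The authors deposited expected counts, FPKM and TPM per gene, and between 64.9% and 68.3% of the deposited expected counts are whole within 0.001. FPKM and TPM, as the authors deposited them, served for levels per length and as other scales. No source used here says whether counting used strand.

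Rounded expected counts entered edgeR 4.0.16 in R 4.3.3, with TMM factors, the filterByExpr filter and the robust quasi-likelihood F test. Adjustment was Benjamini-Hochberg over 13160 genes, with a threshold of 0.05. Each SE is the absolute log2 fold change divided by the square root of its F value. For the length correction, a lowess curve (span 0.3) fitted to log2 CPM by effective length in each library served as an offset. DESeq2 1.42.0 and limma 3.58.1 were alternatives. The fits were also run on simulated counts with a length trend in none or in a single library, and the outcome is not given here. That setting differs from these data, where iKO 1 and WT 2 deviate in opposite directions. The sum per library was tested with a 2-sided exact permutation test. Libraries held 18139500 to 19912000 expected counts, and a count of 0 allows up to 3 counts, for counting error only.

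Members, lists and alternatives were chosen with earlier results of these data known. Named genes were up to 4 called members per complex by size of change, the most abundant member per complex, tissue isoforms with their counterparts, up to 3 called genes per related list, and Nek7. Other members named, the division into catalytic and other members, and Ucp1, Cidea and Adipoq beside Cox8b were chosen after their values were seen.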

Additional observations from a re-analysis of the deposited data

How the results depend on the processing

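Members called numbered 16 to 25 of 80 with RLE or upper-quartile factors, no filter, limma-voom or the replicate number as a block (25 with the block), against 23, with 5.54% to 7.18% of all genes called higher. They were 43 with DESeq2 and 10 with limma on log2(FPKM + 1) or log2(FPKM + 0.1). These FPKM fits shift the median of all genes to -0.12 and -0.20, call 421 genes higher and 931 lower at FPKM + 1 (962 and 1062 in edgeR on counts), and put complex II at a median of 0.01. The labels do not say whether same-numbered libraries are pairs. Their deviations from the group means correlated at 0.21, 0.22 and 0.05, and those of differently numbered libraries at -0.43 to 0.33, which does not settle it. The fit with the replicate block called 1710 of all genes, against 2024. With the length correction 0 members were called, and medians were 0.12 for members and 0.15, 0.11, 0.11 and 0.04 for complexes I, III, IV and V. Fits with the Y-linked term or on the 4 libraries with Y-linked reads have WT 1 as the only WT library to compare with. It is assumed to vary like the other libraries of the fit, which with the term include WT 2 and WT 3. With the term 0 members and 184 of all genes were called at a member median of 0.49, and in the 4 libraries 0 and 143 at 0.50. With that term and the length correction together 0 members and 165 genes were called, with medians of -0.01 for members and 0.001, -0.15, -0.10, -0.07 and -0.09 for complexes I to V. In the 4 libraries with the length correction, an alternative chosen after seeing the data, 0 members were called at a median of 0.01. Without 1 library each, 491 to 1840 of all genes and 0 to 28 members were called, and with the length correction as well (also chosen after seeing the data) 0 members in every fit, at medians of 0.04, 0.14 and 0.16 without iKO 1 to iKO 3 and 0.20, 0.07 and 0.12 without WT 1 to WT 3. Medians of related lists with the length correction were 0.04 for assembly factors, 0.06 for ubiquinone, 0.24 for import, 0.20 for regulators, 0.06 for mitochondrial and 0.19 for cytosolic ribosomal proteins and -0.03 for the proteasome. With the Y-linked term, added after seeing the data, import was at 0.31 and regulators at -0.02. Signs turned for 5 called genes among those named. With the Y-linked term and length correction the log2 fold changes were -0.005 for Cox7a2, -0.10 for Cox7c, -0.01 for Atp5e, -0.06 for Atp5md and -0.17 for Atp5mpl. In the 4 libraries with length correction they were -0.06 for Cox7c, -0.002 for Atp5md and -0.12 for Atp5mpl. Atp5mpl was also at -0.04 with the length correction alone and at -0.07, -0.03 and -0.05 with it and without iKO 2, WT 2 and WT 3. The cause of these shifts was not tested.

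Of the other values of 47 named genes, 628 kept their direction and side of the threshold, 340 lost a call and 7 gained one. Another 41, of 8 genes called in neither fit, changed sign, among them Ndufa4 (-0.08), Atp5g2 (-0.05), Atp5b (-0.06) and Nek7 (0.02) with the length correction. Quintiles by protein length were not run; coding length took their place. A p under 0.1 cannot be had for sums over 3 against 3 libraries, and isoforms under 1 CPM are limited by counting error.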
